A study of Anguilla anguilla with 6 samples.

Results

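Orphan and metabolic nuclear receptors were examined in ovaries of 6 European eels (Anguilla anguilla) from a commercial farm, after 4 weekly injections with gonadotropins, hormones that act on the gonads. By their phenotype label, 4 of the eels were responders and 2 were non-responders, and all 6 had been injected, so there is no untreated group. Receptors were found by the words of a gene model's description (subfamily names of the nuclear receptor system, PPAR, thyroid hormone receptor, oxysterols receptor, ROR, hepatocyte nuclear factor 4 and steroid hormone receptor ERR), leaving out cofactors. The words found 71 of the 45974 gene models, with 32 distinct best-match names for 29 genes. Each animal gave 1 library from pooled pieces of ovary, and the labels give neither the strength nor the definition of a response.

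Nuclear receptors are transcription factors that carry a DNA-binding domain and a pocket for small lipophilic ligands. PPARs bind fatty acids, LXR binds oxysterols, and thyroid hormone receptors bind triiodothyronine; many of them bind DNA as heterodimers with RXR. Orphan members such as NR2C1, NR4A, NR5A and NR6A1 have no accepted circulating hormone. In vertebrate ovaries NR5A receptors activate genes of steroid synthesis in follicle cells, NR0B1 and NR0B2 lack the usual DNA-binding domain and repress other receptors, and NR6A1, also called germ cell nuclear factor, is expressed in oocytes of the mouse.

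All values are the authors' means per group of counts divided by size factors, called scaled counts, with their p and adjusted p. They carry no SD, since values per library and depth per library were not used here. Spread between animals is therefore not shown, and a p does not measure it by itself. A log2 is that of the responder mean over the non-responder mean. In these tissue pieces, fewer cells of a type and less RNA per cell cannot be told apart. The tissue label was checked on markers: of 27 oocyte models whose mean was 5 or more, such as zona pellucida proteins and BMP15, 26 were lower in responders and GDF9 was not, and their list summed to 678088 scaled counts in non-responders against 453541 in responders. The 28 models of that list matched 11 genes, so they are not independent. Markers of granulosa and theca cells summed to 738 and 1363, with both LH receptor models listed at 0 in non-responders and under 1 in responders. That sum includes steroid enzymes, among them CYP17A1, whose models were higher in responders, and CYP19A1, whose models were lower.

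Nuclear receptor transcripts were present at low to moderate levels, and no receptor model differed between responders and non-responders past the authors' threshold. Of the 71 models, 19 had a mean of 0, 52 had a p and 28 had a mean of at least 5. Of all 45974 models, 8902 had a mean of 0 and 37072 had a p. A mean of at least 5 was reached by 39.4% of the receptor models and by 50.6% of all models. None of the 52 was below 0.05 after adjustment in the authors' deposited table, in which 0.183% of all 37072 models with a p passed, and the smallest adjusted p of a receptor was 1.0. An unadjusted p under 0.05 was given to 2 of the 52 models, against a background of 3.67%, and to the same 2 of the 28 models (7.14%), against 5.61% at that level. It was given to 1 receptor model that was higher in responders, an NR5A model, against a background of 2.07%. The other was lower, a REV-ERB-alpha model, against a background of 1.59%.

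The 28 models with a mean of at least 5 lay on both sides of a ratio of 1. Responder means were higher in 16 and lower in 12, a share of 57.1% higher, beside 50.6% of all 23266 models with such a mean. The median log2 was 0.14 (interquartile range -0.16 to 0.50), beside 0.01 (-0.28 to 0.35) for all these models. The median turned to -0.051 at a mean of 50 or more and to -0.016 with no filter, so it shows no stable direction. A difference of more than 2-fold was found in 5 of the 28, beside 10.5% of all models, and each of these 5 had a mean under 20. The members' log2 values ran from -1.25 to 1.32. The smallest absolute log2 of any model that passed the threshold was 1.35 in the authors' deposited table, so none of the 28 differences reached the size of those that passed.

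**Figure D1:**
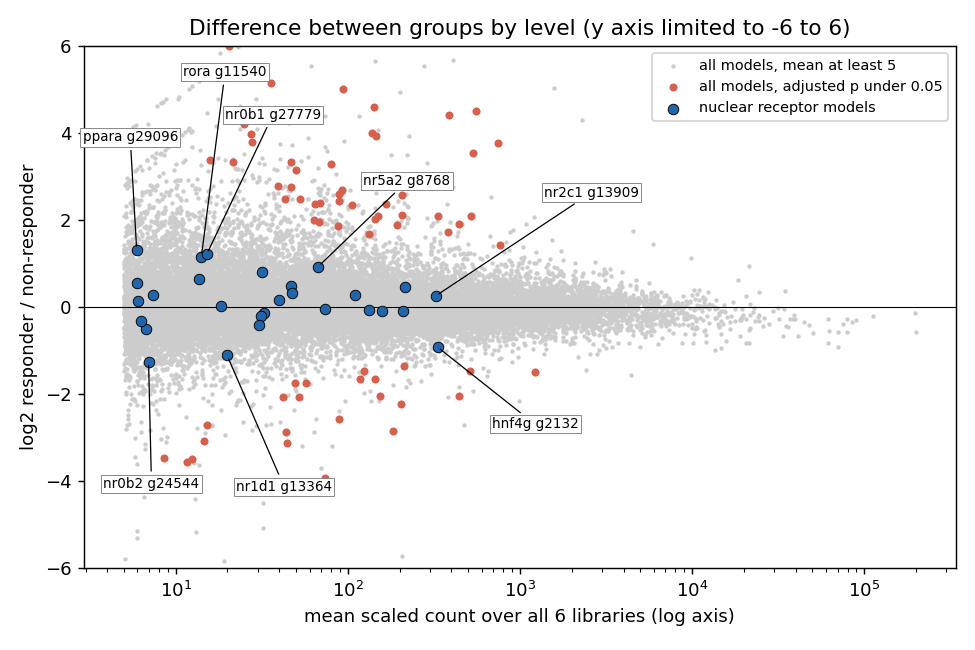
Log2 of responder over non-responder means (y axis) against the mean scaled count over all 6 libraries (x axis, log scale); grey points are all models with a mean of at least 5, red points those with an adjusted p under 0.05, and blue points the 28 nuclear receptor models. The blue points lie between -1.25 and 1.32 on the log2 scale, and none of them is a called model.

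Which receptors are expressed was read from level per kilobase of the longest transcript, since counts grow with length. HNF4G (hnf4g, g2132), a receptor of the hepatocyte nuclear factor family known in mammals from gut, kidney and pancreas, had the highest level, 263 scaled counts per kb in non-responders and 139 in responders. The next were the orphan receptor NR2C1 (g13909), at 89.9 and 107 per kb, and the germ cell nuclear factor NR6A1 (gcnfa, g8766), at 93.6 and 87.9 per kb. HNF4A (g13680) followed at 65.6 and 61.9 per kb, then the NR5A2 model g19817 at 59.2 and 56.6 and LXR-alpha (nr1h3, g4560) at 40.6 and 55.8. A piece of only 106 bases described as NR2C1 (g31100) also lay in this range, at 78.9 and 55.4 per kb, on a mean of 6.70 scaled counts. NR2C1 and NR6A1 changed places between the groups, and whether neighbours in this order differ was not tested because no spread between animals was used. Among all models with a mean of at least 5, HNF4G lay at the 72.6th percentile of level per kb, NR2C1 at the 60.7th and NR6A1 at the 58.0th. Most other receptors lay in the lower part of that ordering: PPARD (g16010) at the 29.3rd percentile, PPARG (g9) at the 12.7th, and THRB (thb, g1736) at the 4.89th.

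**Figure D2:**
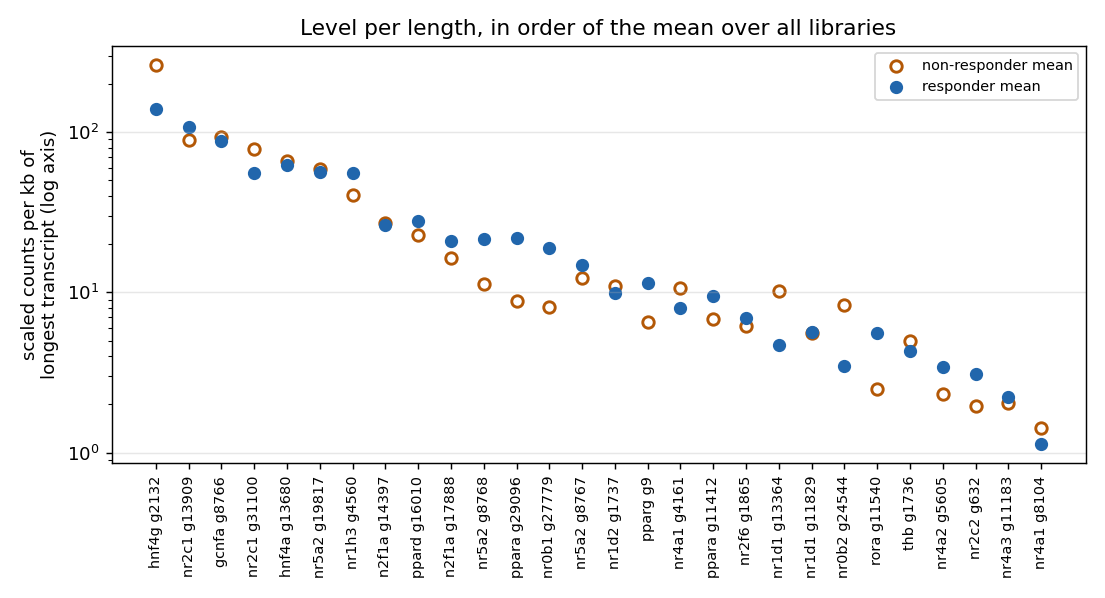
Scaled counts per kb of the longest transcript (y axis, log scale) for the 28 receptor models with a mean of at least 5, in order of their mean over all libraries; open circles are non-responder means and filled circles responder means. HNF4G stands first in both groups, and the order of most later models differs between the groups.

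Absence of signal went with short models. Of 26 receptor models under 500 bases, 15 had a mean of 0 (57.7%) and 2 reached a mean of 5 (7.69%), while among 35 models of 1000 bases or more 2 had a mean of 0 (5.71%) and 24 reached a mean of 5 (68.6%). Of all models in the table, 34.1% of those under 500 bases and 4.74% of those of 1000 bases or more had a mean of 0. A mean of 5 was reached by 27.6% of all models under 500 bases and by 75.5% of those of 1000 bases or more. The ROR group is an example. ROR-beta, known from brain, retina and pineal gland, had 8 models, of which 6 were listed at 0 and the others had less than 1 scaled count in each group. Thyroid hormone receptors had 7 models, of which 5 were listed at 0, among them 1 of 2439 bases described as THRB (g25789). Both models of the orphan receptor ESRRB were at or near 0, and PXR (nr1i2, g19501), a sensor of foreign compounds, had 1.56 scaled counts in non-responders against 2.39 in responders. NR2E1 (g20509), a receptor of neural stem cells, and NR2F5 had less than 1 scaled count in each group. Of the 71 models, 7 were listed at 0 in non-responders alone and 3 in responders alone, some of them named above. Among all 45974 models these counts were 3616 and 1052. The non-responder mean is over 2 libraries and the responder mean over 4, so such counts cannot be compared between the groups. Each receptor model listed at 0 in 1 group alone had at most 1.15 scaled counts in the other group, so no fold is given.

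**Figure D3:**
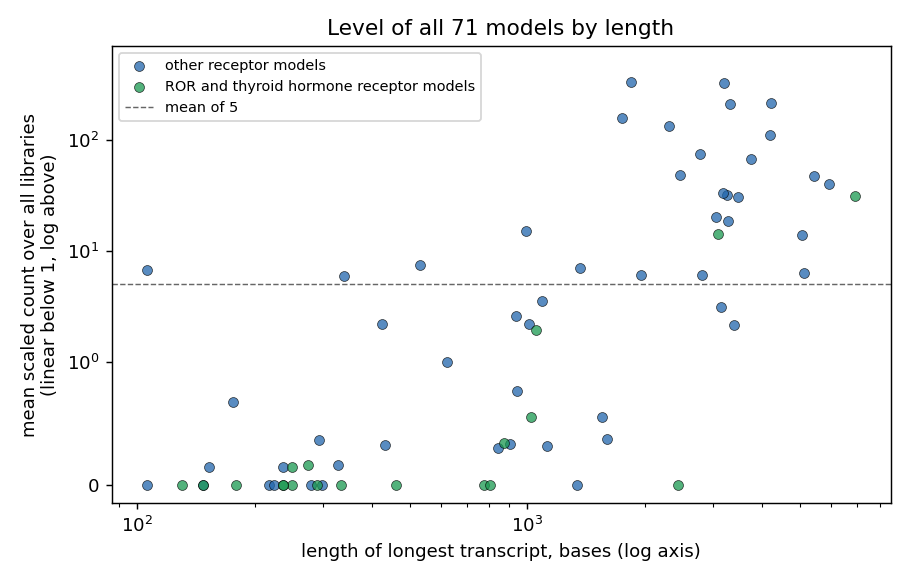
Mean scaled count over all 6 libraries (y axis, linear below 1 and log above) against the length of the longest transcript (x axis, log scale) for all 71 receptor models; ROR and thyroid hormone receptor models are green, and the dashed line marks a mean of 5. Of the 19 models at 0, 15 are under 500 bases, and models with a mean over 20 are all longer than 1000 bases.

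The PPAR and LXR groups had higher responder means in all 5 of their models at a mean of 5 or more, and none passed. Of all models with such a mean, 50.6% were higher. PPARA (g11412), which activates fatty acid oxidation, had 37.1 scaled counts in non-responders against 51.8 in responders (log2 0.48, p = 0.289 in the authors' deposited table). A second, short PPARA model (g29096) had 2.98 and 7.42 (log2 1.32, p = 0.290 in the authors' deposited table), with only the responder mean above 5. PPARD (g16010), the broadly expressed form, had 95.8 and 116 (log2 0.28, p = 0.542 in the authors' deposited table). PPARG (g9), the receptor that drives adipocyte differentiation, had 21.3 and 37.1 (log2 0.80, p = 0.132 in the authors' deposited table). The 7 PPAR models together summed to 164 scaled counts in non-responders against 220 in responders. Of the other 3 models, all with means under 5, g35694 had 2.43 and 2.06, g23774 2.58 and 1.97 and g25412 1.56 and 3.04. LXR-alpha (nr1h3, g4560), the oxysterol sensor that promotes cholesterol efflux, had 171 and 235 (log2 0.46, p = 0.230 in the authors' deposited table). Beside PPARG, 4 of 5 adipocyte marker models were higher in responders, with a median log2 of 0.92, while their sum, 18976 and 18542, was nearly all FABP4. Within them CEBPA (g16641) had 66.3 and 126 (p = 0.259 in the authors' deposited table). PLIN1 (g8968), the coat protein of adipocyte lipid droplets, had 26.7 and 51.1 (p = 0.0657 in the authors' deposited table). Adiponectin (g9157) had 3.37 and 9.71 (p = 0.287 in the authors' deposited table). It reached a mean of 5 only through responders, and it is counted in the 4 and in the median. No model of this marker list had a p under 0.05. The more abundant FABP4 (g3192), at 18197 and 17646, and CIDEC (g23), at 683 and 709, were near a ratio of 1. The part of these markers in the PPARG value was not tested.

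**Figure D4:**
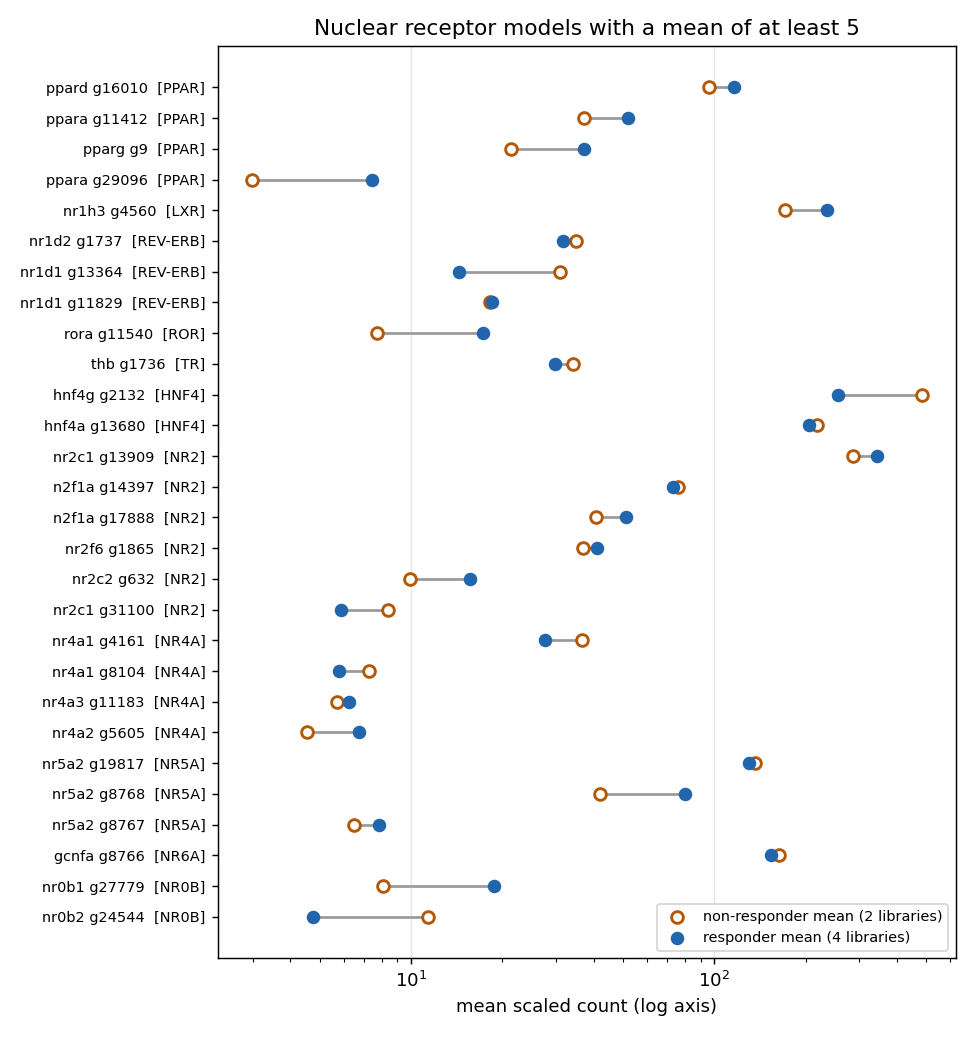
Mean scaled counts (x axis, log scale) of the 28 receptor models with a mean of at least 5, by receptor group; open circles are non-responder means over 2 libraries, filled circles responder means over 4, and grey lines join them. The PPAR and LXR models lie to the right in responders, and HNF4G, a REV-ERB-alpha model and NR0B2 to the left.

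Genes that PPARs and LXR are known to activate lay on both sides of a ratio of 1. Of 27 models of fatty acid oxidation and PPAR targets with a mean of at least 5, 14 were higher and 13 lower in responders, with a median log2 of 0.04, and none passed the adjusted threshold. A model of the lipid droplet protein PLIN2 (g14812) had 507 scaled counts in non-responders against 881 in responders (log2 0.80, p = 0.0249 in the authors' deposited table). Other PLIN2 models with a mean of at least 5 did not share this difference. The models g31184, at 531 and 546 (log2 0.04), and g23309, at 444 and 467 (log2 0.07), were near a ratio of 1. The less abundant g30709 was lower in responders (log2 -0.46). Of 24 models of LXR and sterol targets, 10 were higher and 14 lower, with a median log2 of -0.16 and none past the adjusted threshold. A p under 0.05 was given to 1 of the 24 (4.17%), beside 5.61% of all models at that mean. The smallest p of that list belonged to an acyl-CoA desaturase model (SCD, g7190), at 115 and 213 (log2 0.89, p = 0.0377 in the authors' deposited table). Next came a model of the cholesterol exporter ABCA1 (g1133), at 130 and 80.3 (log2 -0.70, p = 0.0725 in the authors' deposited table).

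Receptors of the circadian clock circuit differed in direction. REV-ERB-alpha (nr1d1), a repressor of the clock gene BMAL1, had a pair of models of similar length. The model g13364 had 31.0 scaled counts in non-responders against 14.3 in responders (log2 -1.11, p = 0.0351 with an adjusted value of 1.0 in the authors' deposited table). The model g11829 had 18.2 and 18.5 (log2 0.02, p = 0.991 in the authors' deposited table). REV-ERB-beta (nr1d2, g1737) had 34.98 and 31.6 (log2 -0.15, p = 0.764 in the authors' deposited table). ROR-alpha (g11540), which activates the gene that REV-ERBs repress, had 7.74 and 17.3 (log2 1.16, p = 0.111 in the authors' deposited table), and the only ROR-gamma model (rorg, g4823) had 1.49 and 2.16.

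Other clock genes were mostly lower in responders. Of 45 clock models with a mean of at least 5, 36 were lower and 9 higher, with a median log2 of -0.18, beside a median of 0.01 over all such models. A p under 0.05 was given to 3 of the 45 (6.67%), all lower, beside 5.61% of all models at that mean, and none passed the adjusted threshold; several models share a name in this list, so they are not independent. HLF (g8165), a PAR bZIP factor of the clock output, had 16.6 scaled counts in non-responders against 3.85 in responders (log2 -2.11, p = 0.00734 in the authors' deposited table). The more abundant HLF model g3525 had 163 and 157 (log2 -0.06). HLF model g5506 had 33.3 and 30.6 (log2 -0.12). TEF (g38280, 386 bases), another PAR bZIP factor, had 46.1 and 19.1 (log2 -1.27, p = 0.00758 in the authors' deposited table). A TEF piece of 175 bases (g41741) had 31.1 and 15.7, and the longest TEF model (g11058) 28.3 and 23.9 (log2 -0.25). The clock repressor BHLHE40 (g70) had 180 and 86.2 (log2 -1.06, p = 0.0278 in the authors' deposited table). The abundant models of central clock genes lay nearer to a ratio of 1, with CLOCK (g8475) at 466 and 406, ARNTL2 (g3387) at 663 and 613, and CRY1 (g12457) at 623 and 587. Among the models higher in responders were a second CLOCK model (g5405), at 2.11 and 8.71, and a PER2 model (g431), at 68.8 and 113. The CLOCK model g5405 and the HLF model g8165 each reached a mean of 5 through 1 group only. The oocyte markers moved in the same direction, with 26 of 27 models lower and a median log2 of -0.39. The adjusted threshold was passed by 2 of them, both PIWI models (g18354 and g33211), beside 0.183% of all models with a p. Several oocyte models share a name, so they are not independent. The part of the oocyte markers in the clock values was not tested. The labels give no hour of sampling.

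The thyroid hormone receptor THRB (g1736) had 34.2 scaled counts in non-responders against 29.7 in responders (log2 -0.20, p = 0.614 in the authors' deposited table). No thyroid hormone receptor alpha model exceeded 1.1 scaled counts in either group. Genes that handle the hormone gave 9 models with a mean of at least 5, 5 higher and 4 lower, with a median log2 of 0.40, and none passed the adjusted threshold. The type III deiodinase DIO3 (iod3, g8870), which inactivates thyroid hormones, had 51.7 and 136 (log2 1.40, p = 9.6e-04 with an adjusted value of 0.228 in the authors' deposited table). This was the only model of that list with a p under 0.05, 1 of 9 (11.1%), beside 5.61% of all models at that mean. Another DIO3 model (g2591), with a mean under 5, had 0.547 and 5.25 (log2 3.26, p = 0.0637 in the authors' deposited table). DIO1 (g5728), which can activate the hormone, had 514 and 682 (log2 0.41, p = 0.539 in the authors' deposited table).

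HNF4G and HNF4A were among the most abundant receptors. HNF4G (g2132) had 484 scaled counts in non-responders against 256 in responders (log2 -0.92, p = 0.122 in the authors' deposited table), the largest difference in counts of any receptor model. HNF4A (g13680) had 218 and 206 (log2 -0.08, p = 0.818 in the authors' deposited table), a direction that turned on rescaling to equal sums. The other 2 models were near 0, a second HNF4A model (g18566) at 0.941 and 0 and HNF4B (g11203) at 0 and 1.15. The 6 models of liver markers summed to 41.5 and 45.8 scaled counts, and antithrombin (g6650) was at 0.547 and 0. The part of liver markers in the HNF4 values was not tested. The summed oocyte markers moved in the direction of HNF4G, and their part in its value was not tested.

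The NR2 group gave 6 models at a mean of 5 or more, 4 higher and 2 lower in responders. NR2C1 (g13909), which represses or activates through direct repeat elements, had 287 scaled counts in non-responders against 343 in responders (log2 0.26, p = 0.473 in the authors' deposited table). Its relative NR2C2 (g632) had 9.95 and 15.6 (log2 0.65, p = 0.410 in the authors' deposited table). The COUP-TFI type receptor NR2F1 had a pair of models, at 75.6 and 72.9 (n2f1a, g14397) and at 40.6 and 51.3 (g17888). NR2F6 (g1865) had 36.9 and 41.1. The smallest p of the group was 0.410 in the authors' deposited table.

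NR4A receptors, whose transcription rises quickly after hormone or stress signals in many cells, were low in both groups. NR4A1 had 36.7 scaled counts in non-responders against 27.5 in responders in its main model (g4161, log2 -0.42, p = 0.453 in the authors' deposited table). A second NR4A1 model (g8104) had 7.27 and 5.80 (log2 -0.33, p = 0.770 in the authors' deposited table). The models of NR4A2 and NR4A3 had means under 7 scaled counts in each group. Other immediate early genes gave 22 models with a mean of at least 5, of which 15 were higher and 7 lower, with a median log2 of 0.58. Among them FOSB (g11898, 2.58 and 9.94) and a KLF4 model (g1952, 3.13 and 8.76) reached that mean only through responders. EGR1 (g24714, 9.70 and 4.35) reached it only through non-responders. A p under 0.05 was given to 2 of the 22 (9.09%), both higher, beside 5.61% of all models at that mean, and none passed the adjusted threshold. FOSL2 (g23476) had 7.99 and 21.4 (log2 1.42, p = 0.0422 in the authors' deposited table), and FOS (g12409) had 746 and 1227 (log2 0.72, p = 0.0451 in the authors' deposited table). An EGR3 model (g11505) with a mean under 5 was listed at 0 in non-responders with 5.25 in responders, at p = 0.0249 in the authors' deposited table. The more abundant EGR3 model g10864 went the other way, at 101 and 60.8 (log2 -0.73, p = 0.0584 in the authors' deposited table).

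NR5A receptors held the model with the second smallest p of all 71. The model g8768, described as NR5A2, had 41.97 scaled counts in non-responders against 80.1 in responders (log2 0.93, p = 0.0426 with an adjusted value of 1.0 in the authors' deposited table). Its short neighbour g8767, also described as NR5A2, had 6.50 and 7.84 (log2 0.27, p = 0.899 in the authors' deposited table). The most abundant NR5A2 model (g19817) had 137 and 131 (log2 -0.07, p = 0.874 in the authors' deposited table). The model g6671 had 2.11 and 4.23, g8202 had 1.56 and 0.709, g14035 was at 0 and 0.555, and g28942 was at 0 in both groups. The 1 model described as steroidogenic factor 1, or NR5A1 (stf1, g12511), was at 0 and 0.537.

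The numbering of the models was set beside the gene order in RefSeq's annotation of the eel assembly fAngAng1, because 7 models carry the name NR5A2 and RefSeq gives that symbol to 1 gene. RefSeq has a gene of the same symbol, with or without a copy letter, for 62 receptor models. Of these, 18 had a shared neighbour found by name within 2 places on either side. Not every model name was translated to its RefSeq symbol, so shared neighbours could be missed and 18 is a minimum. THRB (g1736) and NR1D2 (g1737) have consecutive numbers, and RefSeq places thrb next to nr1d2b. The model 2 places after g1737 on the other side carries the name of ube2e2, which RefSeq places near the other copy, nr1d2a, so which copy g1737 represents was not resolved. The gene RefSeq calls nr5a2 has ptprc and kif14 within 2 places. The model before g6671 is named ptprc, and a kif14 model lies 2 places before g8202, with a GPR144 model between. The other pair, g8767 and g8768, lies between a model of NR6A1 (g8766) and one of GPR144 (g8769), the receptor now called ADGRD2. In RefSeq the gene between nr6a1a and adgrd2 has no gene symbol beyond its locus number. In human, the gene between NR6A1 and ADGRD2 is NR5A1, which encodes steroidogenic factor 1. Which NR5A gene g8768 represents was not resolved here, since no sequence was used.

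NR6A1 and the NR0B repressors complete the set. The main NR6A1 model (gcnfa, g8766) had 164 scaled counts in non-responders against 154 in responders (log2 -0.09, p = 0.810 in the authors' deposited table). Another 2 NR6A1 models had less than 1 scaled count in each group. NR0B1 (DAX1, g27779), a repressor of NR5A receptors, had 8.06 and 18.7 (log2 1.22, p = 0.0840 in the authors' deposited table). NR0B2 (SHP, g24544), which represses NR5A2 and HNF4A in mammalian liver, had 11.4 and 4.76 (log2 -1.25, p = 0.110 in the authors' deposited table). Both have means under 20, and the responder mean of NR0B2 was below 5.

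Steroidogenic genes that NR5A receptors are known to activate were split. Of 12 models, all with a mean of at least 5, 7 were higher and 5 lower in responders, with a median log2 of 0.25 and none past the deposited adjusted threshold. A p under 0.05 was given to 1 of the 12 (8.33%), beside 5.61% of all models at that mean. HSD17B1 (dhb1, g21029) had 86.8 and 257 scaled counts (log2 1.57, with an adjusted p of 0.0568 in the authors' deposited table). Benjamini-Hochberg re-adjustment of the authors' p-values brought this to 0.0357 over models whose mean reached the minimum of 5 and to 0.0286 over those that reached 20, both past the threshold. Over all models, the same re-adjustment called 82 of 23266 and 90 of 16971, beside 68 of 37072 as deposited. Applying it to this list was chosen after seeing the data. The CYP17A1 model g10692 had 222 and 556 (log2 1.33, p = 0.0613 in the authors' deposited table), and CYP11A1 (g4682), which cleaves the cholesterol side chain, had 112 and 144. The HSD3B1 models were lower, with responder over non-responder ratios of 0.814 (g10190, p = 0.545), 0.399 (g33843, p = 0.169) and 0.591 (g34859, p = 0.314) in the authors' deposited table. Of the 8 genes of this list 7 were matched by name, and STAR was not. The granulosa and theca marker list, which shares CYP11A1, CYP17A1 and CYP19A1 with this one, had 8 of 10 models higher in responders, and the other 2 were both CYP19A1, the aromatase, at 23.0 and 11.9 (g9348) and at 24.3 and 21.2 (g9349). Its part in the values of g8768 and NR0B1 was not tested.

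Partners and relatives outside the search words included models as abundant per length as the leading receptors, or more so. Retinoic acid receptor beta (rarb, g23582) had 1290 scaled counts per kb in non-responders and 936 in responders, above HNF4G in both groups. RXR-gamma (rxrga, g6558) had 212 and 229 per kb, and a piece of 242 bases described as RXR-gamma (g31146) had 269 and 334 per kb. The RXR-beta model rxrba (g11161), a heterodimer partner of PPAR, LXR and thyroid hormone receptors, had 180 scaled counts in non-responders against 351 in responders (log2 0.96, p = 0.0402 in the authors' deposited table). In scaled counts, RARB had 1935 and 1404 (log2 -0.46, p = 0.115 in the authors' deposited table). These were the 2 smallest p-values of that list, whose 14 models at a mean of 5 or more were higher in 11 and lower in 3, with a median log2 of 0.31 and none past the adjusted threshold. A p under 0.05 was given to 1 of the 14 (7.14%), beside 5.61% of all models at that mean. The bile acid receptor NR1H4 (g25142) had 26.2 and 15.8, and the vitamin D receptor (g18396) 18.4 and 11.2. Estrogen-related receptor gamma (err3, g15194) had 11.6 and 22.2, against the near absence of ESRRB.

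Coregulators, which link receptors to the transcription machinery, gave 28 models at a mean of 5 or more, of which 17 were higher and 11 lower, with a median log2 of 0.05. MED1 (g1281), the Mediator subunit that binds nuclear receptors, had 8989 scaled counts in non-responders against 5523 in responders (log2 -0.70, p = 0.0275 in the authors' deposited table). Of the less abundant MED1 models, g13407 had 26.2 and 24.8 (log2 -0.08) and g34535 4.15 and 2.66. The corepressor NRIP1 (g14114) had 34.3 and 58.9 (log2 0.78, p = 0.0857 in the authors' deposited table). The MED1 model g1281 was the only coregulator model with a p under 0.05, and none passed the adjusted threshold. It was 1 of the 28 (3.57%), beside 5.61% of all models at that mean.

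**Figure D5:**
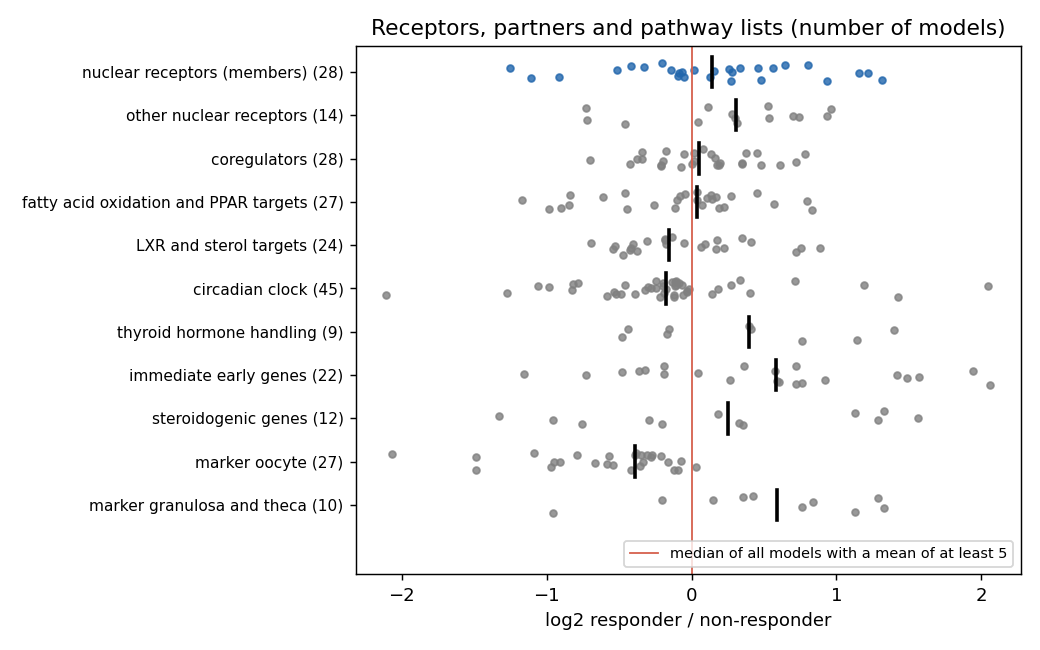
Log2 of responder over non-responder means (x axis) for each model with a mean of at least 5 in the receptor set, its partners, pathway lists and 2 marker lists (rows, with the number of models); black bars are the median of each row and the red line the median of all models with such a mean. Clock genes and oocyte markers lie mostly to the left, immediate early genes and granulosa and theca markers mostly to the right.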

How the data were processed

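The authors deposited 1 table, named for DESeq, with 45974 gene models; the sources used here do not give aligner, counter, build or versions. Per the labels' protocols, pieces of each gonad were pooled and each library was made from 1 microgram of total RNA. Per the file headers the values are base means, a signal of counts divided by size factors, averaged over all libraries and per condition, with the fold (ratio of condition means), a p-value and an adjusted p-value. Weights of 0.33 for condition A and 0.67 for B rebuild the overall mean (largest deviation 3.5e-10), so A holds the 2 non-responders and B the 4 responders. The deposited similarity to the best protein match is a fraction and was not used for filtering. Another 6 columns, 1 per library, have names found in no label and were not used, so count tests, depth and spread per library were not analysed here. Libraries are from separate animals, and whether these shared a tank is not stated.

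Models were found by description, a log2 of the deposited fold was taken, and the call threshold was 0.05 on the deposited adjusted p. Re-adjustment used Benjamini-Hochberg, tested on simulated p-values. Named models are those with a p under 0.05 or a mean of at least 100, the 2 smallest p-values per receptor group and pathway list, and all models of NR5A2, NR6A1 and NR0B1. A further model is named where a sentence contrasts it with these, chosen after its values were seen. The result of 1 model that this rule names is not reported here. Members and lists were chosen with earlier results of these data known. Lists were matched by name, and a model that could belong to a copy or piece of the same gene is counted as it stands. RefSeq gene order served for neighbours only, since 0 identifiers matched. Python 3.11.15, pandas 2.3.3 and matplotlib 3.10.9 were used.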

Additional observations from a re-analysis of the deposited data

How the results depend on the processing

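No receptor model passed when the p-values were re-adjusted over models at a mean of 5 or more (smallest adjusted p of a receptor 0.7998), over those at 20 or more (0.7404) or over all models with a p (1.0). An alternative chosen after seeing the data applied the same re-adjustment to the gene lists: HSD17B1 passed under both minimum means, making 1 steroidogenic call in place of 0, and the oocyte list kept 2 calls. Over all models the calls rose from 68 to 82 at a minimum mean of 5 and to 90 at 20. The median log2 of the members, 0.14, was 0.053 at a mean of 20 or more, -0.051 at 50 or more and -0.016 with no filter. It was 0.25 after rescaling both groups to equal sums, which adds 0.11 to every log2, 0.16 after centring on the median of models with a mean of at least 50, 0.13 with a pseudocount of 1, 0.11 with a pseudocount of 5 and 0.13 with 1 model per name. Models above a ratio of 1 numbered 20 after rescaling to equal sums, against 16 of 28. The naming rule gave 25 receptor models with a finite log2, of which 22 kept their direction under both scalings and both pseudocounts. The other 3 changed sign on rescaling to equal sums, to 0.028 for HNF4A (g13680), 0.046 for NR5A2 (g19817) and 0.021 for NR6A1 (g8766). Receptor models named outside that rule were not among the 25. Among those, NR2F1 (g14397) had a log2 of -0.05, smaller in size than the 0.11 added, so its sign turns too. Leaving out libraries and count tools were not run, since no library column has a name that ties it to a sample or group, and columns were not assigned by their values. No paired analysis was possible, since each animal gave 1 library and was labelled either as a responder or as a non-responder. Depth per library is unknown here, and 2 non-responders limit the precision of every difference.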
